A study of Homo sapiens with 2 samples.

Results

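TARBP2, EIF2C2, DICER1 and DGCR8 encode proteins of the small RNA pathway, and their reads were compared between HT-29 cells with GPR126 knocked down and HT-29 cells with a scramble control. The 4 genes were taken by symbol from a table of 2007 genes and all 4 were found, each with a raw read count in both libraries. HT-29 is a human colon adenocarcinoma cell line. One library of total RNA came from cells labelled as GPR126 knockdown, whose title names an shRNA, and the other came from cells labelled as scramble, whose label does not say whether that control was also a hairpin. GPR126, now ADGRG6, encodes a receptor of the adhesion class coupled to G proteins. The knockdown library held 6010192 reads and the scramble library 5753320. The sequence, vector and promoter of the hairpin, the number of hairpins and the culture details are not stated in the labels.

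Small RNAs are cut out of longer transcripts in steps. In the nucleus the Microprocessor, made of the RNase III enzyme DROSHA and the RNA-binding protein DGCR8, cuts the hairpin of a primary microRNA out of its transcript. Exportin-5 with RAN carries the hairpin to the cytoplasm, where DICER1, another RNase III enzyme, removes the loop with its partner TARBP2. The duplex is then loaded into an Argonaute protein, and AGO2, the product of EIF2C2, is the human Argonaute known for slicing matched targets. A conventional shRNA is a ready-made hairpin that enters this route after the Microprocessor, so it uses the same exportin, DICER1 and Argonaute.

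With 1 library per group, every difference is between these libraries, has no replicate check and carries no p-value. Intervals are exact 95% intervals for counting error only. The table is limited to genes listed by the authors as different: the smallest absolute log2 ratio in the authors' deposited table is 1, so each gene in it differs by 2-fold or more. In a bulk library, fewer cells of a type and less RNA per cell cannot be told apart. The targeted gene GPR126 had 2 reads in the knockdown library and 68 in the scramble library, 35.5-fold lower (9.46 to 299). Of 12 colon epithelium markers none was in the table, so the label of the line could not be checked against them; none of 6 leukocyte markers and 1 of 6 fibroblast markers, COL1A1 with 227 and 83 reads in the knockdown and scramble libraries, were in it.

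All 4 small RNA genes had fewer reads in the knockdown library when each library was scaled to its total, by between 2.01-fold and 2.71-fold. All 4 were at least 2-fold lower, as were 66.7% of all genes in the table, and none was at least 2-fold higher, as 33.2% of them were. Since the table has a row only for a gene past 2-fold, a difference of that size in either direction follows from the listing. Only the direction was free, and lower was the direction of most listed genes. With 4 genes, the count says nothing particular of them. The median log2 ratio of knockdown over scramble was -1.14 for the 4 genes and -1.16 for the 2007 listed genes. The second median covers 1339 lower and 668 higher genes, so it is not the level of a typical lower gene. Of the listed genes, 28.6% had a lower ratio than TARBP2, 51.4% than EIF2C2, 53.0% than DICER1 and 66.2% than DGCR8. Counted from the lowest ratio, TARBP2 ranked 576, EIF2C2 1033, DICER1 1064 and DGCR8 1330, with 1339 lower genes in all. EIF2C2, DICER1 and DGCR8 thus lay among the smaller differences of the lower genes. DGCR8 turned slightly higher when the trimmed mean of the listed ratios was set to 0, and EIF2C2, DICER1 and DGCR8 did so when their median was. The members summed to 240 reads in the knockdown library and 514 in the scramble library, 2.24-fold lower (1.92 to 2.62).

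**Figure D1:**
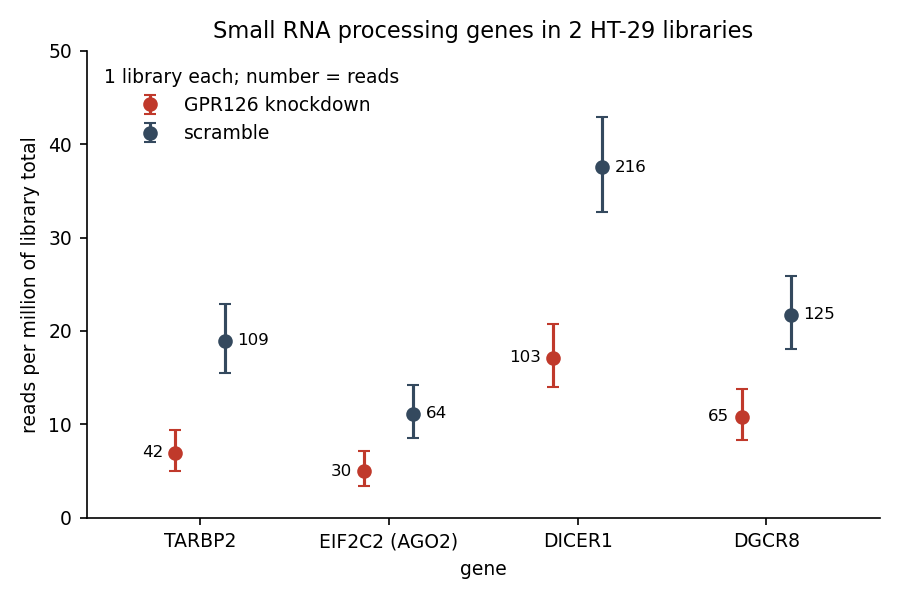
RPM (reads per 1e6 reads of the library total) for the 4 genes in the GPR126 knockdown library (red, left) and the scramble library (dark, right); bars are exact 95% counting intervals and the numbers are reads. For every gene the 2 intervals do not overlap, from 42 against 109 reads for TARBP2 to 65 against 125 for DGCR8, under scaling to the library total.

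DGCR8 (Entrez 54487), the RNA-binding subunit of the Microprocessor, acts first in the pathway and had the smallest point estimate of the 4. It had 65 reads in the knockdown library and 125 in the scramble library. In reads per 1e6 reads of the library (RPM), these were 10.8 (8.35 to 13.8) in the knockdown library and 21.7 (18.1 to 25.9) in the scramble library. The intervals of the libraries did not overlap. DGCR8 was 2.01-fold lower (1.48 to 2.75), with a log2 ratio of -1.001. By the authors' deposited log2 ratio of -1.01 it lay just inside the limit for listing: only 16 of the 1339 lower genes lay nearer to it. A Microprocessor gene with a slightly smaller difference would be missing from the table, and the DGCR8 partner DROSHA is not in it.

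DGCR8 is itself a known substrate of the Microprocessor, which cuts hairpins in the 5′ part of its own mRNA, and microRNAs are annotated there. They are shown because they lie within the transcript that was counted. All lie on the plus strand of build GRCh38.p14, with RefSeq sequences, and the seed, bases 2 to 8, is in capitals.
hsa-miR-3618, chr22:20085797-20085818, plus strand: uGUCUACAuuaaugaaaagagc
hsa-miR-1306-5p, chr22:20086072-20086093, plus strand: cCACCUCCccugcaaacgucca
hsa-miR-1306-3p, chr22:20086112-20086129, plus strand: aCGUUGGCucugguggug
By GENCODE 29, miR-3618 lies in an untranslated exon of DGCR8 and both arms of miR-1306 lie in a coding exon. None of the seeds is shared. The counts do not separate cut from uncut DGCR8 transcripts, and no microRNA was measured.

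DICER1 (Entrez 23405), the enzyme that trims a microRNA precursor or an shRNA to a duplex, had the most reads of the 4 genes and so the narrowest interval. It had 103 reads in the knockdown library, or 17.1 RPM (13.99 to 20.8). In the scramble library it had 216 reads, or 37.5 RPM (32.7 to 42.9). The knockdown level was 45.6% of the scramble level. DICER1 was 2.19-fold lower (1.72 to 2.80), with a log2 ratio of -1.13. This was 0.03 above the median of all listed genes, higher ones included.

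TARBP2 (Entrez 6895), the double-stranded RNA-binding partner that helps DICER1 hand the duplex to Argonaute and also restrains the kinase PKR (EIF2AK2), had the largest point estimate. It had 42 reads in the knockdown library, or 6.99 RPM (5.04 to 9.45). In the scramble library it had 109 reads, or 18.9 RPM (15.6 to 22.9). The knockdown level was 36.9% of the scramble level. TARBP2 was 2.71-fold lower (1.88 to 3.97), with a log2 ratio of -1.43. Relative to the median of the listed genes its log2 ratio was -0.27. Its point estimate alone of the 4 stayed below 0 under each library scaling tried. The interval of its ratio over that of each other member held 1, so TARBP2 was not set apart from them. EIF2AK2 and PRKRA, another DICER1 partner, are not in the table.

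EIF2C2 (Entrez 27161), the Argonaute that slices, had the fewest reads and the widest interval. It had 30 reads in the knockdown library, or 4.99 RPM (3.37 to 7.13). In the scramble library it had 64 reads, or 11.1 RPM (8.57 to 14.2). EIF2C2 was 2.23-fold lower (1.42 to 3.56), with a log2 ratio of -1.14, 0.02 above the median of the listed genes. At its 94 reads in both libraries together, only a difference of 1.54-fold or more could be told from equality. For DICER1, with 319 reads, that limit was 1.27-fold. The paralogs AGO1, AGO3 and AGO4 are not in the table, and no label or header says how reads that fit several Argonaute genes were treated.

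The counting interval lay wholly below equality for all 4 genes, as it did for 66.7% of the listed genes, which are all the lower ones. Every listed gene also has a low deposited FDR from these same libraries. The listing therefore largely fixes this outcome, and it says nothing particular of the members. The interval lay wholly beyond 2-fold lower for 0 of the 4, against 33.1% of the listed genes. Many listed genes had a ratio inside the interval of a member: 1165 for TARBP2, 1106 for EIF2C2, 837 for DICER1 and 809 for DGCR8. In depth, 16.1% of the listed genes had fewer reads than EIF2C2, 32.8% than TARBP2, 39.5% than DGCR8 and 56.1% than DICER1. Fewer reads make an interval wider, and a wide one is less likely to lie wholly beyond 2-fold. In the authors' deposited table the log2 ratios ran from -1.44 for TARBP2 to -1.01 for DGCR8. The FDR given there ran from 9.53e-11 for DICER1 to 6.3e-04 for EIF2C2, and it compares these libraries, not the conditions.

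**Figure D2:**
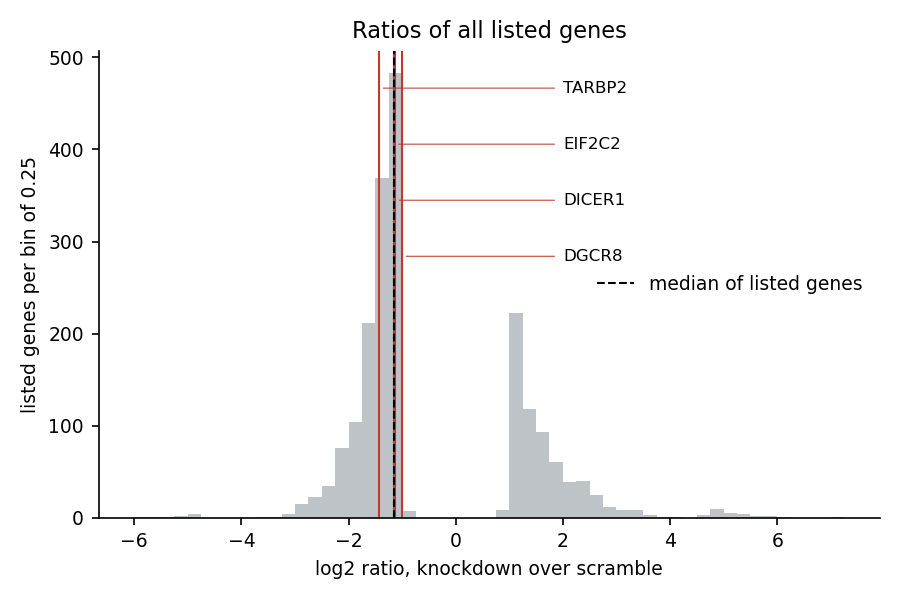
Histogram of the log2 ratio, knockdown over scramble, of all 2007 listed genes in bins of 0.25, with red lines at the 4 members and a dashed line at the median. The members, from -1.43 to -1.001, fall in the peak of lower genes around the median of -1.16, and the gap around 0 is the authors' limit for listing; set to that median, EIF2C2, DICER1 and DGCR8 lie above 0.

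Whether the members differed from one another does not depend on how the libraries are scaled, because each pair is compared within both libraries. All 6 pairs were compared, and all 6 intervals of the ratio of ratios held 1. The TARBP2 ratio was 0.74 of the DGCR8 ratio (0.45 to 1.21), the pair farthest apart. It was 0.81 of the DICER1 ratio (0.51 to 1.26) and 0.82 of the EIF2C2 ratio (0.45 to 1.504). The EIF2C2 and DICER1 ratios were nearest, at 0.98 (0.58 to 1.65). For EIF2C2 over DGCR8 the value was 0.90 (0.51 to 1.57), and for DICER1 over DGCR8 it was 0.92 (0.62 to 1.37). At this depth no order of the 4 differences could be made out. All 4 genes are listed on the lower side and past 2-fold, so smaller differences were left out before any pair was compared. The bounds, from 0.45 to 1.65, leave room for members to differ from each other by more than 1.5-fold.

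**Figure D3:**
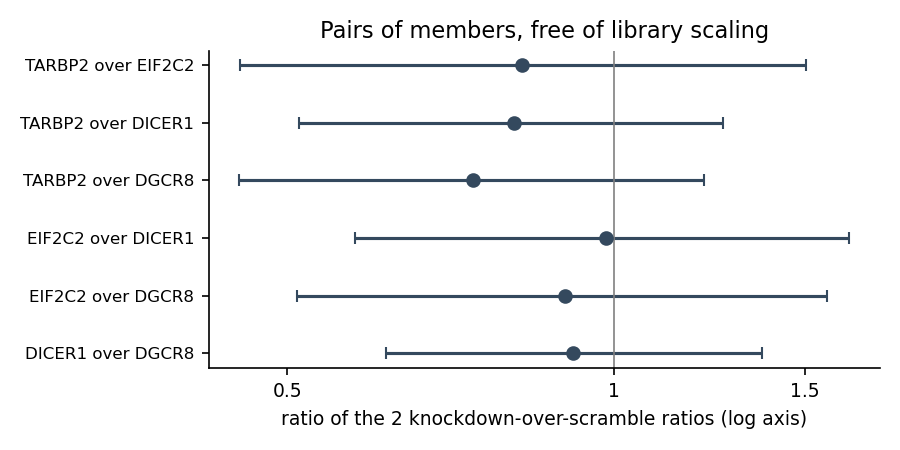
Ratio of the knockdown-over-scramble ratios for each of the 6 pairs of members, with exact 95% counting intervals, on a log axis. Every interval crosses 1, and TARBP2 over DGCR8, at 0.74, is the farthest from it.

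The size of each difference depended on what was set equal between the libraries. The listed genes took 11.5% of the knockdown total and 15.8% of the scramble total. Setting their summed reads equal removed a log2 shift of -0.46 and gave TARBP2 -0.97, EIF2C2 -0.68, DICER1 -0.67 and DGCR8 -0.54. Under the upper quartile the 4 values lay between -0.72 for TARBP2 and -0.29 for DGCR8. Under the median ratio TARBP2 was at -0.27, EIF2C2 at 0.02, DICER1 at 0.03 and DGCR8 at 0.16. These scalings use the listed genes, mostly lower ones, so they raise every ratio by construction. The order of the 4 genes is the same under each scaling because a scaling shifts every log2 ratio by the same amount.

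**Figure D4:**
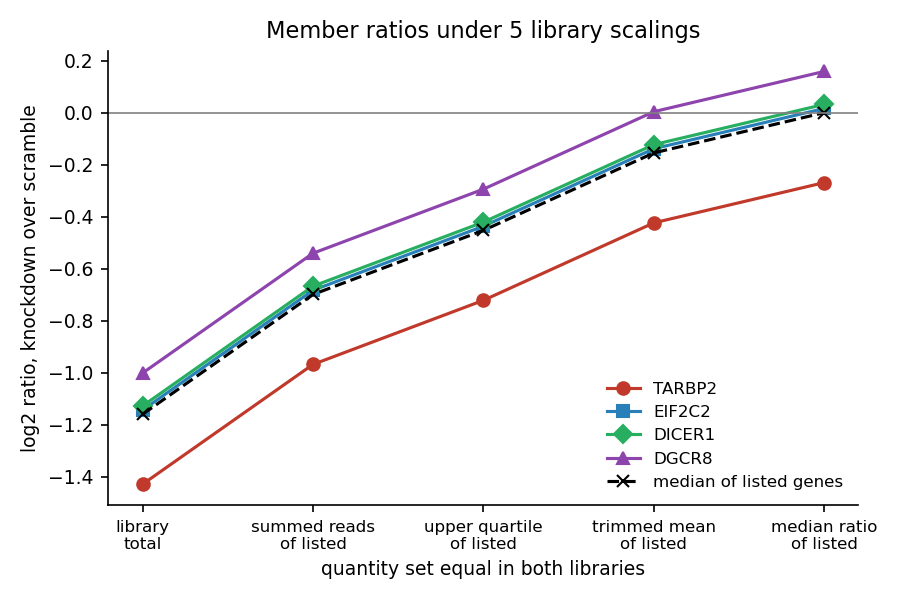
Log2 ratio, knockdown over scramble, of each member and of the median listed gene (dashed) when 5 different quantities are set equal in both libraries. TARBP2 runs from -1.43 to -0.27 and stays below 0; EIF2C2 and DICER1 run beside the median of the listed genes and pass 0 under the median ratio, and DGCR8 passes 0 under the trimmed mean and the median ratio.

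The remaining genes of the core pathway were mostly out of view. Of 14 core genes 5 were listed, the 4 members and RAN, all 5 lower as were 66.7% of all listed genes, so the count and the median log2 ratio of -1.14 mostly restate the members. RAN, the GTPase that powers nuclear export by exportin-5 and other exportins, had 1911 reads in the knockdown library and 4271 in the scramble library, 2.33-fold lower (2.21 to 2.47). The interval of each member's ratio over that of RAN held 1, from 0.86 for TARBP2 (0.59 to 1.25) to 1.16 for DGCR8 (0.84 to 1.59). As RAN too is listed only past 2-fold, the limit given for the member pairs holds here. The other 9 core genes, XPO5 and TNRC6A to TNRC6C among them, were not listed, and an unlisted gene may have differed by less than 2-fold, been too weakly covered or not been supplied.

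Cofactors and chaperones of the pathway that were listed had fewer reads too under scaling to the library total, although ERH and PTGES3 turned higher under the median scaling (listed ratios centred at 0). Of 20 Microprocessor cofactors the table held 7, each lower, as were 66.7% of all listed genes. Their median log2 ratio was -1.39, and that of all listed genes was -1.16. The latter takes in 668 higher genes, so it does not show whether these genes differed more than other lower genes. The splicing factors SRSF3 and SRSF1, which are known to aid Microprocessor cleavage of some hairpins, were 4.66-fold (4.32 to 5.04) and 3.08-fold lower (2.82 to 3.38). ERH, a small protein that binds DGCR8, was 2.16-fold lower (2.04 to 2.28). Of 13 chaperones known to open Argonaute for loading or to assist HSP90, 5 were listed, all lower, again beside 66.7% of all listed genes. Their median was -1.48, and the same limit holds for setting it beside -1.16. HSP90AA1, with 2015 reads in the knockdown library and 14873 in the scramble library, was 7.71-fold lower (7.36 to 8.08), and HSPA8, the constitutive HSC70, was 2.80-fold lower (2.71 to 2.89). The EIF2C2 ratio and the DICER1 ratio were each compared with those of the 16 other listed genes of the core, cofactor, decay, chaperone and effector lists: 4 intervals for EIF2C2 and 5 for DICER1 lay wholly above 1, meaning a smaller difference in the member, and the rest held 1. For TARBP2 4 and for DGCR8 6 lay above 1. As every one of these genes is listed past 2-fold and the members' intervals are wide, an interval below 1 was hardly possible, so its absence says nothing. DGCR8 lies almost at the limit for listing, so nearly every lower listed gene had to show a larger difference. The direction of its 6 intervals above 1 therefore largely follows from the listing.

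Downstream, few silencing genes were listed, and DCP1A and TSN among them turned higher under the same median scaling. Of 39 effectors 2 were, the P-body scaffold PATL1 with 47 and 233 reads in the knockdown and scramble libraries (5.18-fold lower, 3.77 to 7.24) and the decapping activator DCP1A (2.09-fold lower, 1.62 to 2.70). Of 14 tailing and decay genes only TSN was listed (2.204-fold lower, 1.92 to 2.53), which encodes translin, a subunit of the nuclease that clears the passenger strand of siRNAs. None of 13 PIWI pathway genes was listed. The double-stranded RNA-binding proteins STAU1 and DHX9 were 2.61-fold (2.21 to 3.08) and 2.50-fold lower (2.22 to 2.82), beside TARBP2, DICER1 and DGCR8 in a list of 19. Of 30 genes of double-stranded RNA sensing and the interferon response 28 were not listed; the interferon regulatory factor IRF7, with 87 and 8 reads in the knockdown and scramble libraries, was higher, and IFI6 was lower, with 159 and 343.

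**Figure D5:**
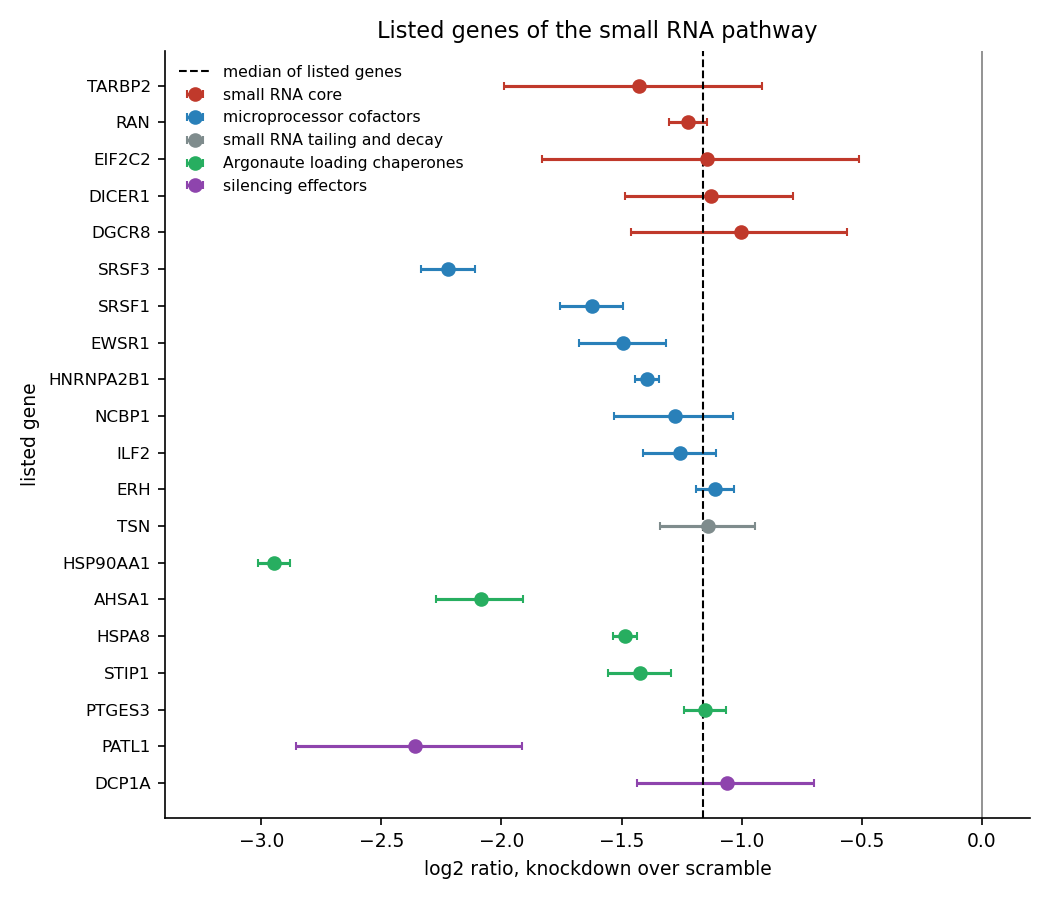
Log2 ratio, knockdown over scramble, with exact 95% counting intervals for the listed genes of 5 small RNA pathway lists, coloured by list, under scaling to the library total; the dashed line is the median of all listed genes. The 4 members have wide intervals that cross that median of -1.16, while HSP90AA1, PATL1, SRSF3 and AHSA1 lie below -2.

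Genes that carry microRNAs, the substrates of the members, were examined as a list, chosen with earlier results of these data known. The table held 8 of 49 host genes, each of them lower (DGCR8 alone not so under the trimmed mean and median scalings), beside 66.7% of all listed genes. Their median log2 ratio was -1.42. The median of -1.16 over all listed genes takes in the higher ones, so it does not show whether the hosts differed more than other lower genes. DGCR8, at -1.001, had the smallest difference of the hosts. MCM7, a helicase subunit, had 750 reads in the knockdown library and 3069 in the scramble library, 4.27-fold lower (3.95 to 4.64). SMC4, a condensin subunit, was 2.76-fold lower (2.52 to 3.03), with 645 reads in the knockdown library and 1705 in the scramble library. Both hold microRNAs in their introns, printed in the same way to show the seeds they share, with MCM7 hosting the first 3 and SMC4 the others.
hsa-miR-106b-5p, chr7:100094043-100094063, minus strand: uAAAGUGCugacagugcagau
hsa-miR-93-5p, chr7:100093815-100093837, minus strand: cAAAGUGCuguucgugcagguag
hsa-miR-25-3p, chr7:100093571-100093592, minus strand: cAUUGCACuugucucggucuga
hsa-miR-15b-5p, chr3:160404607-160404628, plus strand: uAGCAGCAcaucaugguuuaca
hsa-miR-16-5p, chr3:160404754-160404775, plus strand: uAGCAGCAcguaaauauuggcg
miR-106b-5p and miR-93-5p share the seed AAAGUGC, and miR-15b-5p and miR-16-5p share AGCAGCA. The remaining hosts were CLCN5 (4.44-fold lower, 2.02 to 11.1, with 8 reads in the knockdown library and 34 in the scramble library), EVL, WWP2, RNF130 and SREBF2, between 2.24-fold and 2.74-fold lower. DICER1 hosts miR-3173 in an intron. Host reads are of the host transcript and give no microRNA level.

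The members were picked for their roles, so the annotation they share restates that choice and is given as a description. In the authors' deposited gene ontology terms, TARBP2, EIF2C2 and DICER1 carry the RNA-induced silencing complex and pre-microRNA processing, and no other listed gene carries either. DGCR8 shares primary microRNA processing with SMAD1 alone. TARBP2, DICER1 and DGCR8 carry double-stranded RNA binding, as do APTX, DHX9, ILF2 and STAU1, and all 7, 3 of them members, were lower, beside 66.7% of all listed genes. The members lie on different chromosomes, TARBP2 on 12, DICER1 on 14, DGCR8 on 22 and EIF2C2 on 8. Of the 8 nearest listed neighbours, also drawn from a table with 66.7% lower genes, 7 were lower. Of these 7, 4 (CHRAC1, LY6E, BTBD7 and GLRX5) turned higher under the median scaling. HOXC6, beyond TARBP2, was the 1 higher neighbour (2.36-fold), with 69 and 28 reads in the knockdown and scramble libraries. Only 2 of the 8 are adjacent to their member, and LY6E has 23 protein-coding genes between it and EIF2C2.

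Some reads of the members could belong to overlapping genes, since neither labels nor headers say whether counting used strand. TRMT2A, which lies next to DGCR8 on the opposite strand and overlaps its end by 12 bases in GENCODE 29, had 45 reads in the knockdown library and 99 in the scramble library (2.30-fold lower, 1.60 to 3.35). The DGCR8 ratio was 1.14 of the TRMT2A ratio (0.70 to 1.87). Longer overlaps are with genes that are not in the table. On the opposite strand, AC067931.2 overlaps EIF2C2 by 1518 bases, AC006547.2 overlaps DGCR8 by 1055, DICER1-AS1 overlaps DICER1 by 366 and AC023509.4 overlaps TARBP2 by 16. AC067931.1 overlaps EIF2C2 by 671 bases on the same strand. CHRAC1, adjacent to EIF2C2, was 2.08-fold lower (1.75 to 2.48). The other neighbours on the lower side, none of them adjacent to or overlapping a member, were AAAS, LY6E, BTBD7, GLRX5 and CDC45, between 2.11-fold and 3.87-fold lower.

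The promoters are shown as context for the genes, and the expression values bear on no motif in them. RefSeq windows matched TARBP2, DICER1 and DGCR8, and EIF2C2 did not match. The 250 bases before the first listed start of each gene are shown 5′ to 3′ in build GRCh38.p14, with CCAAT, or its reverse complement ATTGG, in capitals.
DGCR8, chr22:20079991-20080240, plus strand: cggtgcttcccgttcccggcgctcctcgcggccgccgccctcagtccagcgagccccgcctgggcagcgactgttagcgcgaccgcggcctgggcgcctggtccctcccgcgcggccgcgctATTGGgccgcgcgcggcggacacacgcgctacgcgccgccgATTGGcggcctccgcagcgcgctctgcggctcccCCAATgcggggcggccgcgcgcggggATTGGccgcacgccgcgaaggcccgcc
DICER1, chr14:95157530-95157779, minus strand: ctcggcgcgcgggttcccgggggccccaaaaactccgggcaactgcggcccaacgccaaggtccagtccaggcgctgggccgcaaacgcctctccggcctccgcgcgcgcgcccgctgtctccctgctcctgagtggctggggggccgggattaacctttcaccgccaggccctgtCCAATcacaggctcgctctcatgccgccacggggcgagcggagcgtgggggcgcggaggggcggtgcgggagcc
TARBP2, chr12:53500673-53500922, plus strand: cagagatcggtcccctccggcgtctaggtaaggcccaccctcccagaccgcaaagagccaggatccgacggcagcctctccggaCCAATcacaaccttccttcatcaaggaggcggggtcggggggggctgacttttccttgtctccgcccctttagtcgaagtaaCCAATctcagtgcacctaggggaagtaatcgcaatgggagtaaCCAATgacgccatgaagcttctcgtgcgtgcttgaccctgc
DGCR8 held 4 such matches, TARBP2 3 and DICER1 1. Of all 35116 windows of the same length, 32.0% held at least 1, 2.93% at least 3 and 0.87% at least 4. The DGCR8 window had a GC content of 80.0% and 48 CpG dinucleotides, more than in 99.7% of windows. DICER1 had a GC content of 74.0% and 30 CpG, and TARBP2 had 58.8% and 15, beside medians of 58.0% and 11 over all windows. GGGCGG, an SP1 motif, occurred in all 3 (42.6% of windows), 2 times in DGCR8. GAANNTTC, part of a heat shock element, occurred in TARBP2 alone of the 3 printed windows (5.78% of windows). All motifs were searched on both strands. No match was found in these windows for the ETS motif CCGGAAG (8.52% of all windows), the NRF1 motif (1.03%), the E-box CACGTG (6.34%) or the E2F motif TTTCGCGC (0.44%). The same holds for the TATA motif TATAAA (10.7%) and the ATF4 motif TGATGNAA (3.14%). These values depend on the start taken, and which start these cells use was not measured. The other 2 of the 3 TARBP2 windows held 0 and 1 CCAAT matches, with a GC content of 64.8% and 68.4%. The other 4 of the 5 DICER1 windows had a GC content of 48.0%, 52.0%, 38.0% and 34.0%; the one at 38.0% held 1 CCAAT and 1 heat shock match, and the remaining ones held neither.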

How the data were processed

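RNA of 1 GPR126 knockdown library and 1 scramble library was analysed. The authors deposited whole-number read counts per gene, per the file headers. A second deposited column, headed TPM, equals the count per 1e6 reads of 1 library total (100% of values above 0, within 0.0051), so it is an RPM value, with 0 entered as 0.01; the library totals were recovered from it. A log2 ratio, a p-value and an FDR complete the deposited table. The aligner, counting tool, annotation and build are unknown (not given in the sources used), and deposited positions, which name no chromosome or build, were not used. The depth was 6010192 reads in the knockdown library and 5753320 in the scramble library; intervals cover counting error only.

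Ratios of knockdown over scramble used library totals and 0.5 added reads on the log2 scale. Folds used no added reads and exact Clopper-Pearson 95% intervals conditional on the summed count. RPM values have exact Poisson intervals, and pairs of genes an exact conditional odds ratio. No differential expression test was run. The interval calculation was tested on simulated Poisson counts without the authors' limit for listing, so that test does not cover the effect of this selection. The members and 12 gene lists were chosen with earlier results of these data known. In each list every listed gene is named or counted. Of the 7 listed Microprocessor cofactors, only SRSF3, SRSF1 and ERH have their fold given. ERH, which had the smallest difference of the 7, was not picked by its ratio. For each member the nearest listed protein-coding gene on either side was taken from RefSeq order (2004 of 2007 identifiers matched GRCh38.p14). With 2 libraries, no gene can be ranked for likeness of pattern to a member. Tools were scipy 1.17.1, numpy 2.4.6, matplotlib 3.10.9, pandas 2.3.3 and Python 3.11.15.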

Additional observations from a re-analysis of the deposited data

How the results depend on the processing

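No paired analysis was possible because there was a single library in each group, and none could be left out. Pseudocounts of 0.05 and 5 reads and the authors' RPM values kept each of the 4 member ratios inside its counting interval. Scaling to listed genes moved them, as its construction on mostly lower genes makes it do. The upper quartile gave TARBP2 -0.72, EIF2C2 -0.44, DICER1 -0.42 and DGCR8 -0.29. The trimmed mean gave TARBP2 -0.42, EIF2C2 -0.14, DICER1 -0.12 and DGCR8 0.0036, which reversed. The median ratio gave TARBP2 -0.27 and reversed EIF2C2 to 0.016, DICER1 to 0.032 and DGCR8 to 0.16. Setting summed reads equal moved DICER1 to -0.67 and DGCR8 to -0.54. Of the 4 members, 0 were 2-fold lower under each of these 4 scalings, 0 at a 4-fold limit and 0 by a whole interval beyond 2-fold. For the 5 core genes these counts were 0, 0 and 1, the last being RAN. Of 1339 listed genes at least 2-fold lower, 172 passed 4-fold, 664 had a whole interval beyond 2-fold, and 301, 170, 122 and 532 were left under the upper quartile, trimmed mean, median and summed reads. Of 667 at least 2-fold higher, 174 passed 4-fold and 329 had a whole interval beyond 2-fold; no scaling lowered that number. Floors of 1 and 5 RPM and a 1.5-fold limit moved no count by over 1.5 times, though the table's own 2-fold limit allows no other outcome for the limit. A whole interval below equality, an alternative chosen after seeing the data, kept 4 of the 4 members. It also kept all 1339 lower listed genes, so it sets none of them apart. Depth limits EIF2C2 most, with 30 and 64 reads in the knockdown and scramble libraries.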

Other observations

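Beyond the gene lists, 7 listed genes carry a gene ontology term of RNA silencing, processing bodies or double-stranded RNA binding in the authors' deposited table. These 7 genes were chosen after their values were seen. All 7 had fewer reads in the knockdown library, as did 66.7% of all listed genes, although ERI1 and APTX turned higher under the median scaling (listed ratios centred at 0). RBM3, a cold-inducible RNA-binding protein annotated to microRNA production, had 244 reads in the knockdown library and 616 in the scramble library, 2.64-fold lower (2.27 to 3.07). SMAD1, the BMP signal transducer that shares the term of primary microRNA processing with DGCR8, was 2.35-fold lower (1.57 to 3.58), with 36 reads in the knockdown library and 81 in the scramble library. ERI1, a 3′ exonuclease that degrades small interfering RNAs, was 2.02-fold lower (1.54 to 2.65), with 85 reads in the knockdown library and 164 in the scramble library. The processing body terms brought in MEX3B, an RNA-binding protein (3.05-fold lower, 1.59 to 6.25), and BTBD6 (2.71-fold lower, 1.93 to 3.85). APTX, the DNA end-repair enzyme aprataxin, was 2.21-fold lower (1.72 to 2.86), and CHMP1A, an ESCRT-III subunit under the broader term gene silencing, was 3.49-fold lower (2.89 to 4.25).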
